A study of Mus musculus with 6 samples.

Results

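The genes described here are 10 liver protease inhibitors of the mouse: the 5 Serpina1 copies Serpina1a, Serpina1b, Serpina1c, Serpina1d and Serpina1e, and the 5 Serpina3 genes Serpina3c, Serpina3g, Serpina3k, Serpina3m and Serpina3n. They were taken by gene symbol from the 34352 genes of the deposited table with symbols. No cut on their values was used, but the set was chosen with earlier results of these data known. Their identifiers were then looked up among the 55335 genes of the deposited FPKM table (fragments per kilobase of gene, scaled to each library's total). The table with symbols holds 26 serpins of the same clade A, so these 10 are part of that clade. Cadmium mice were wild-type C57BL/6, male by label, and were given 20 mg of cadmium chloride (CdCl2) per kg by gavage each day for 90 days. Control mice were of the same strain, sex label and genotype, and received 0 mg per kg over the same 90 days. Per the labels all mice were 6 to 8 weeks old and the salt was dissolved in deionized water. Each group has 3 liver libraries, numbered 1 to 3, and the number is also the batch given in the labels. The labels name 6 mice per group and do not say which mice went into which library, so p-values describe how these libraries spread and no more. The RNA was the input of an m6A immunoprecipitation (m6A is a methyl mark on adenosine in RNA), which the labels describe as the fragments left unbound by the antibody. A level here is therefore a level in that fraction, and abundance and the share left unbound cannot be told apart.

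Serpins are suicide inhibitors. A protease cuts an exposed stretch of the serpin, the reactive centre loop, and is then trapped in a covalent complex, so the sequence of the loop decides which proteases a serpin meets. The Serpina1 genes encode alpha-1-antitrypsin, which hepatocytes secrete into blood and which in humans shields the lung from neutrophil elastase. The Serpina3 genes are the mouse relatives of the single human gene for alpha-1-antichymotrypsin, an acute phase protein, and have multiplied and diverged in rodents.

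The loop sequences are shown because the near-identical Serpina1 copies differ more there, base for base, than over their whole coding sequence. Each line gives the coding bases of the stretch from the conserved hinge to the conserved end of the loop, 81 bases long in each Serpina1 copy, read from GRCm38 with the GENCODE M21 gene models. Capitals mark the 18 positions at which the 5 copies are not all the same. All 5 lie on the minus strand and are written 5′ to 3′.
Serpina1a, chr12:103853750-103853830: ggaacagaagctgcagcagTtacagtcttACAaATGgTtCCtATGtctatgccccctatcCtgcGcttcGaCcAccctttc
Serpina1b, chr12:103728317-103728397: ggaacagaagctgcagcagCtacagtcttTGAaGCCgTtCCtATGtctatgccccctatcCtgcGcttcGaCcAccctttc
Serpina1c, chr12:103895087-103895167: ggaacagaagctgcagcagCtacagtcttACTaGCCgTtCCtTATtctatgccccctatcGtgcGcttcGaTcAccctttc
Serpina1d, chr12:103763755-103763835: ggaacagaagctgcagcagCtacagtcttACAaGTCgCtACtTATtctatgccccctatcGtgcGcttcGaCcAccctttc
Serpina1e, chr12:103947093-103947173: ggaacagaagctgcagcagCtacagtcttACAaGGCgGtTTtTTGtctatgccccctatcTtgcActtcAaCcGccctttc
Over the whole coding sequence the 10 pairs of Serpina1 copies were 96.3% to 98.5% identical. Over the loop stretch the same pairs were 85.2% to 93.8% identical, with Serpina1c and Serpina1d the most alike.

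The Serpina3 loops are shown in the same way for the member that was called different between the groups, Serpina3g, and for the 3 members that make up nearly all of the family's level. Here capitals mark the bases between the conserved start (27 bases) and the conserved end (15 bases), and all 4 lie on the plus strand.
Serpina3g, chr12:104241072-104241161: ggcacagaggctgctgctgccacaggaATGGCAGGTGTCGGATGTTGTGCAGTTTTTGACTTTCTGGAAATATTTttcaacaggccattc
Serpina3k, chr12:104345269-104345352: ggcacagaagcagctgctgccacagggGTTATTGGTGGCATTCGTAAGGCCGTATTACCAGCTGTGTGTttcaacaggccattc
Serpina3m, chr12:104393769-104393858: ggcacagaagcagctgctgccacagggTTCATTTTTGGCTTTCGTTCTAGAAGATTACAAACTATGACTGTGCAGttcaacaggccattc
Serpina3n, chr12:104413448-104413537: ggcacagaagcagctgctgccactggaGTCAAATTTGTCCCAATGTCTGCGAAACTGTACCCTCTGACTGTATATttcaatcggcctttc
The capital stretches differ in length as well as in bases, 42 in Serpina3k and 48 in the other 3. Coding identity within Serpina3 ran from 38.9% to 90.9% over 10 pairs, and the low values all involve Serpina3g. The sequence compared was each gene's shortest complete annotated coding model. For Serpina3g that model has 747 bases, against 1257 bases in Serpina3k, Serpina3m and Serpina3n. Bases without a partner counted as differences, so its low values include the gap in length and do not measure divergence alone. Between the families identity was 39.2% to 61.0% over 25 pairs, and the lowest values again involve Serpina3g.

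The Serpina1 promoters are shown because the 5 copies also share what lies before the gene. RefSeq promoter windows (GRCm38.p6, 250 bases before to 50 after the annotated start) were at hand for 8 of the 10 genes, and Serpina3k and Serpina3m had none. The stretches below end before the annotated start. In Serpina1a and Serpina1e capitals mark a string that the 5 copies share, and in Serpina3g they mark a match to GGNNTTNCC, an NF-kB pattern.
Serpina1a, chr12:103863625-103863690, minus strand: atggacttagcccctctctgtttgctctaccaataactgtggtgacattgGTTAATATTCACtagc
Serpina1e, chr12:103956960-103957025, minus strand: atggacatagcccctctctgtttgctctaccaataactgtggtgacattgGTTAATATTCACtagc
Serpina3g, chr12:104236027-104236092, plus strand: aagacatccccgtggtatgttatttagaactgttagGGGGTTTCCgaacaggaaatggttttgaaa
The string GTTAATATTCAC was read off these promoters, and on both strands of 32851 promoters it was found in 5, which are Serpina1a to Serpina1e. It begins 21, 26, 27, 16 and 78 bases before the annotated start of Serpina1a, Serpina1b, Serpina1c, Serpina1d and Serpina1e. TTGCNNAA, a C/EBP pattern, was in 10.8% of promoters and in 4 of the 8 windows, those of Serpina1a, Serpina1b, Serpina1d and Serpina1e. GGNNTTNCC was in 16.0% of promoters and in the windows of Serpina3g and Serpina3n. TTCNNNGAA, a STAT pattern, was in 8.30% of promoters and in the window of Serpina3g, and TTTCNNTTT, an interferon response pattern, was in 10.6% of promoters and in 0 of the 8. These are matches of letters and say nothing of binding.

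The 10 genes lie in 1 cluster of clade A serpins on chromosome 12 (GRCm38). The cluster, from 103614786 to 104414329, spans 800 kb and holds 28 annotated serpin genes and pseudogenes, of which 23 are protein coding. Serpina1a to Serpina1e lie between 103728156 and 103958975, all on the minus strand. The Serpina3 members lie between 104146382 and 104414329, Serpina3c on the minus strand and the other 4 on the plus strand. Serpina1d (103763594 to 103773592) lies within the annotated span of Serpina1b (103728156 to 103830373), with 0 exon bases shared. Serpina3k and Serpina3m have the same annotated start, 104338486, and share 60 exon bases.

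**Figure D1:**
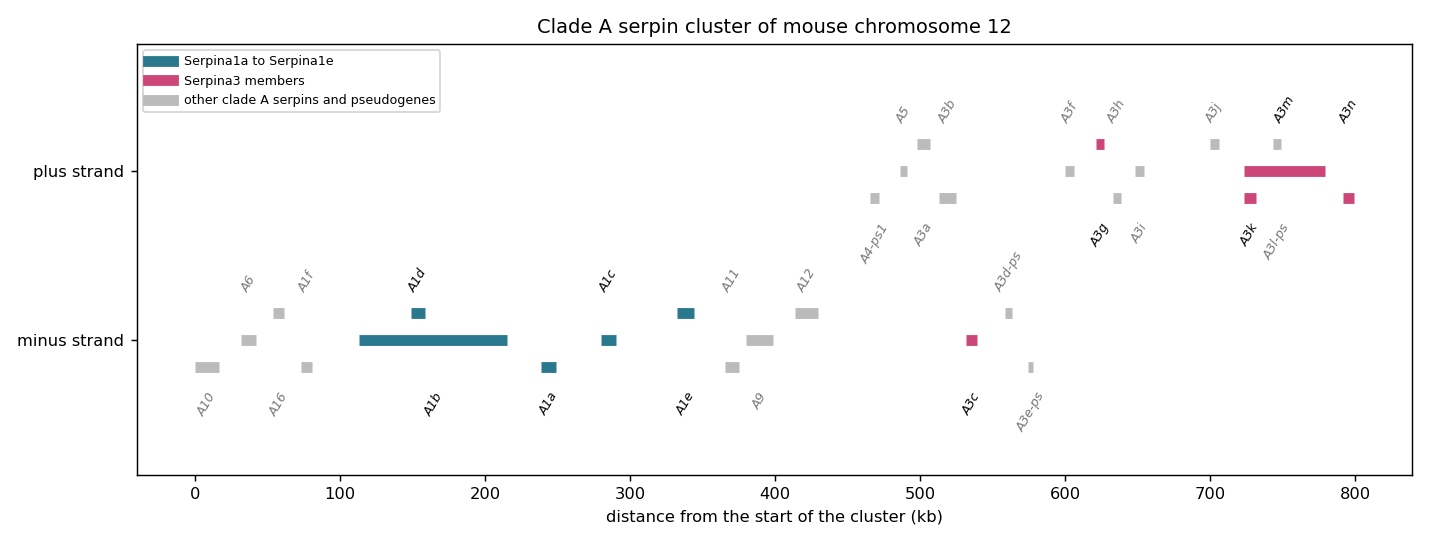
Map of the clade A serpin cluster, with the distance from the start of the cluster in kb on the horizontal axis and the strand on the vertical axis; bars are annotated gene spans, drawn at 3 heights per strand so that they do not overlap, and names (with the letters Serpin left off) stand above or below their bar. The 5 Serpina1 copies are on the minus strand, and 4 of the 5 Serpina3 members are on the plus strand at the other end.

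How far reads can be given to 1 copy sets how far single copies can be read. The transcript taken for each gene was its shortest complete annotated coding model. The libraries were read as 150-base pairs, and for Serpina1a and Serpina1c 50.5% and 59.7% of the 150-base windows of the transcript occur letter for letter in another gene. The share was 23.3% for Serpina1d, 21.2% for Serpina1b and 9.42% for Serpina1e. In the Serpina3 genes it was 0.331% in Serpina3m, 0.262% in Serpina3k and 0 in Serpina3c, Serpina3g and Serpina3n. The windows of Serpina1 were shared with the other Serpina1 copies and with the predicted gene Gm8893, and those of Serpina1c also with B430119L08Rik. Those of Serpina3k and Serpina3m were shared with each other. How the authors' counting treated reads that match several genes is not given in the sources used here, so the split of Serpina1 between its copies is uncertain and family sums are given beside it.

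**Figure D2:**
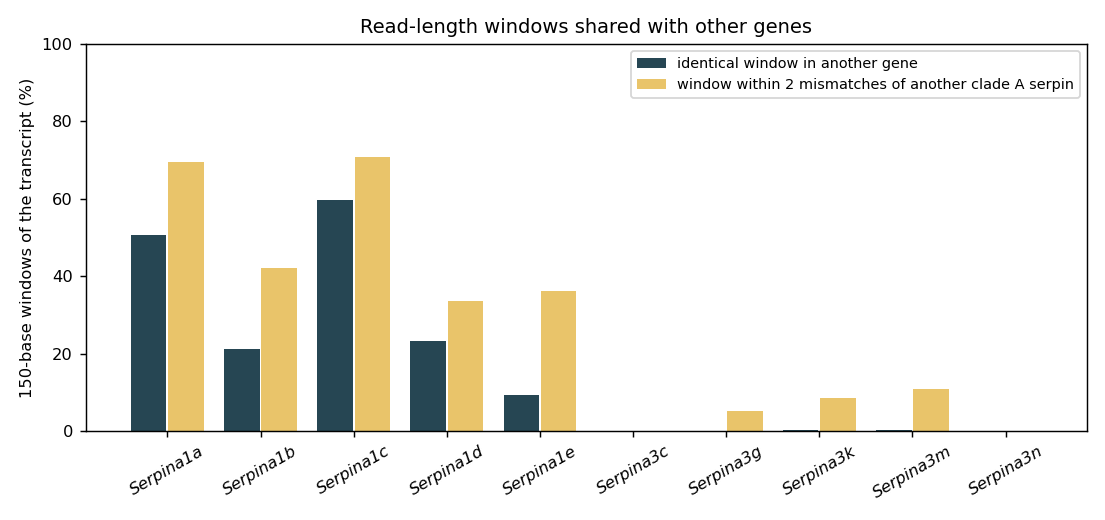
Share of the 150-base windows of each gene's transcript, in percent, that occur identically in another gene (dark bars) or within 2 mismatches of another clade A serpin (light bars). Serpina1a and Serpina1c have identical copies of 50.5% and 59.7% of their windows elsewhere, and Serpina3c and Serpina3n of 0.

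The whole series was read as follows. The reads recovered from the deposited values ran from 42115960 to 68587128 in cadmium libraries and from 42476574 to 59095817 in control libraries. Control replicate 1 stands apart: its 10 most abundant genes held 44.6% of its reads, against 33.3% to 35.9% in the other 5 libraries. Alb, the albumin gene, was at 17288, 10130 and 17899 FPKM in cadmium replicates 1 to 3 and at 10243, 17184 and 17478 FPKM in control replicates 1 to 3, so cadmium replicate 2 and control replicate 1 were low. The metallothionein Mt1 was at 378 to 729 FPKM in cadmium and 7.39 to 41.3 FPKM in control libraries. The labels give male mice, but Xist, which is transcribed from the silenced X, was at 27.1 to 35.5 FPKM in cadmium and 19.7 to 25.8 FPKM in control libraries, and the Y-linked Ddx3y and Eif2s3y were at 0 in all 6.

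Setting cadmium against control asks which of these inhibitors differ in liver RNA after 90 days of exposure. Serpina3g, a low-level intracellular inhibitor, was called higher in cadmium, a call that depended on the settings. The abundant secreted inhibitors were not called. With limma on log2(FPKM + 1), 9 of the 10 genes passed the filter, an FPKM of 1 or more in 3 or more of 6 libraries, and 1 of these 9 passed an adjusted p of 0.05 (Benjamini-Hochberg over 9908 genes). Over all genes tested 9.68% were called, 7.86% higher and 1.82% lower, so 1 of 9 is near the background. The fold changes of the 9 were all above 0, with a median log2 fold change of 0.30 where the median of all tested genes was 0.09. Groups did not overlap in 2 of the 9, Serpina1c and Serpina3g, against 33.6% of all genes, or 26.4% with cadmium higher. Of the 9, 8 were at or above 1 FPKM in all 6 libraries and Serpina3g in 4, the 3 cadmium libraries and 1 control. Its passing the filter thus rested on the cadmium libraries, which favours a difference. With no filter its adjusted p was 0.139 (limma).

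**Figure D3:**
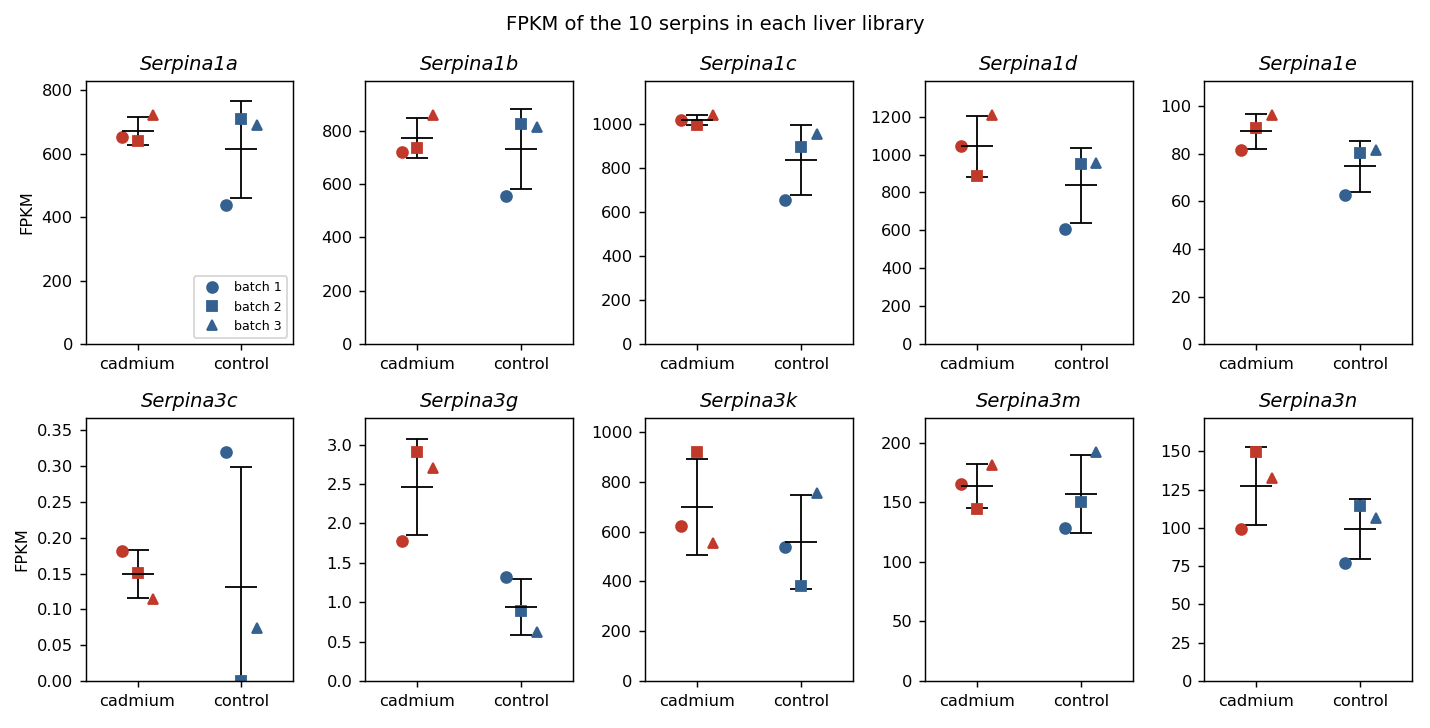
FPKM of the 10 genes in each library, cadmium (red) left of control (blue), with a scale starting at 0 for each gene; marker shapes give the batch number of the labels, and bars give the mean and SD of 3 libraries. Serpina1c and Serpina3g are the tested genes whose groups do not overlap, and control replicate 1 is the lowest control library for every Serpina1 copy.

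Among the Serpina1 copies the highest levels belonged to Serpina1d and Serpina1c. Serpina1d (ENSMUSG00000071177) was at 1043, 884 and 1207 FPKM in cadmium replicates 1 to 3 and at 609, 950 and 954 FPKM in control replicates 1 to 3. Cadmium replicate 2 lay below both higher controls, so the groups overlapped, and the log2 fold change was 0.34 (SE 0.24, 95% interval -0.23 to 0.90, adjusted p = 0.418). Without control replicate 1, the low library, it was 0.12. A difference in the number of cells of a type and one in RNA per cell cannot be told apart in such bulk libraries. Serpina1c (ENSMUSG00000079015, 103894926 to 103904887) was at 1017, 995 and 1038 FPKM in cadmium and at 654, 893 and 954 FPKM in control libraries. In FPKM all 3 cadmium libraries lay above all 3 controls, within a narrow band of their own. In the deposited log2 values the groups overlapped, and control replicate 3, at 16.417, lay above the highest cadmium library, at 16.415. The log2 fold change of Serpina1c was 0.30 (SE 0.20, 95% interval -0.16 to 0.77, adjusted p = 0.371), which is within the spread between libraries, and it was 0.14 without control replicate 1.

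Serpina1b and Serpina1a overlapped widely. Serpina1b (ENSMUSG00000071178) was at 720, 737 and 857 FPKM in cadmium and at 557, 824 and 813 FPKM in control libraries. Its log2 fold change was 0.10 (SE 0.21, 95% interval -0.40 to 0.59, adjusted p = 0.815). Serpina1a (ENSMUSG00000066366, 103853589 to 103863562) was at 651, 639 and 720 FPKM in cadmium and at 438, 710 and 690 FPKM in control libraries. Its log2 fold change was 0.16 (SE 0.23, 95% interval -0.37 to 0.69, adjusted p = 0.701). In both genes the sign of the fold change rested on control replicate 1: without it the log2 fold change was -0.09 for Serpina1b and -0.06 for Serpina1a. Within batches 2 and 3 the log2 differences were -0.16 and 0.08 for Serpina1b and -0.15 and 0.06 for Serpina1a.

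Serpina1e stood below the other copies. Serpina1e (ENSMUSG00000072849, 103946931 to 103958975) was at 81.5, 90.9 and 96.2 FPKM in cadmium and at 62.5, 80.2 and 81.8 FPKM in control libraries. Cadmium replicate 1 lay just under the highest control, so the groups overlapped by that 1 library. Within batches 1, 2 and 3 the cadmium library was higher by 0.38, 0.18 and 0.23 on the log2 scale. The fitted log2 fold change was 0.26 (SE 0.15, 95% interval -0.09 to 0.62, adjusted p = 0.314), the smallest p of the 5 copies and above the threshold, and it was 0.14 without control replicate 1.

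Summed over the 5 copies, Serpina1 reached 3513, 3346 and 3919 FPKM in cadmium replicates 1 to 3 and 2321, 3458 and 3492 FPKM in control replicates 1 to 3. Control replicate 1 was the low library, and the other 5 lay within a band. The mean log2 of the sums was 0.24 higher in cadmium, against a pooled SD between libraries of 0.25 on that scale. Without control replicate 1 it was 0.04 higher. Per FPKM of Alb, the other abundant secreted protein, the sum came to 20.3%, 33.0% and 21.9% in cadmium and to 22.7%, 20.1% and 20.0% in control libraries. On that scale control replicate 1 was no longer low, and cadmium replicate 2, the low-Alb library, was the highest. The 5 copies held 0.700% to 0.805% of all reads in cadmium and 0.479% to 0.740% in control libraries.

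Within the sum the share of each copy was close in the 2 groups. Serpina1d held 29.0 ± 2.27% of the family FPKM in cadmium and 27.0 ± 0.67% in control libraries, and Serpina1c held 28.4 ± 1.69% in cadmium and 27.1 ± 1.18% in control libraries (SD, n = 3 each). Serpina1b held 21.5 ± 0.85% in cadmium and 23.7 ± 0.39% in control libraries, and its range of 20.5% to 22.0% in cadmium did not overlap that of 23.3% to 24.0% in control libraries. Serpina1a held 18.7 ± 0.38% in cadmium and 19.7 ± 0.83% in control libraries, and Serpina1e held 2.50 ± 0.20% in cadmium and 2.45 ± 0.21% in control libraries. These shares carry no test, and reads shared between copies enter them.

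**Figure D4:**
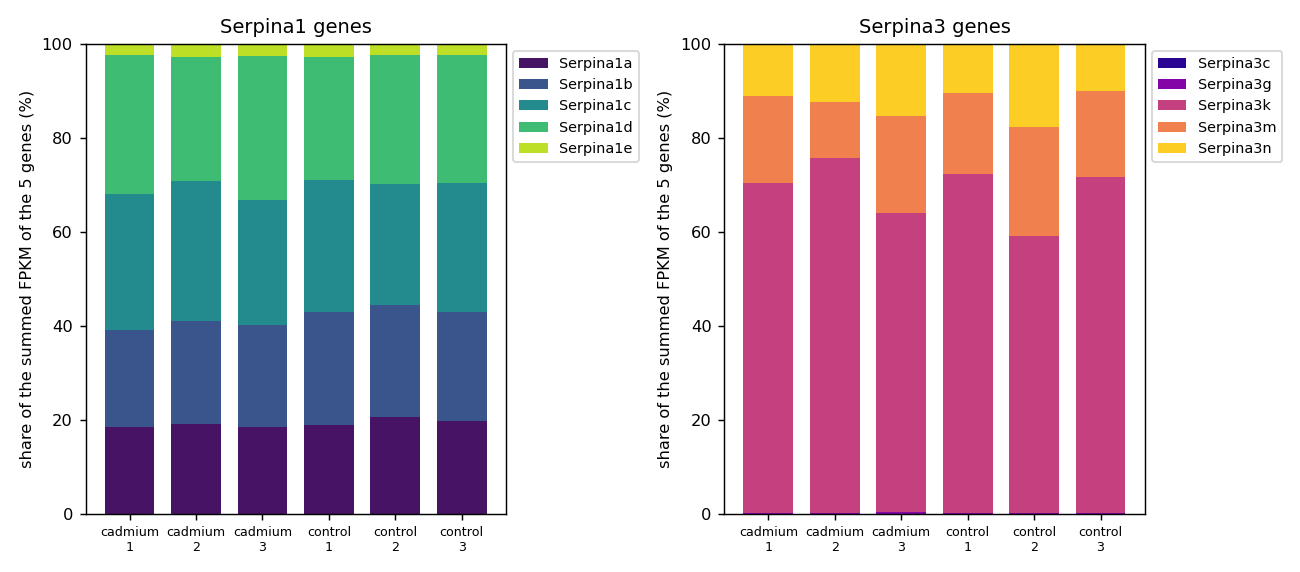
Share of each gene in the summed FPKM of its family, in percent, for each of the 6 libraries, cadmium left of control. The Serpina1 shares vary little between libraries, while Serpina3k makes up 59.0% to 75.6% of the Serpina3 sum.

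The order of the Serpina1 copies depends on the length that reads are divided by. The deposited FPKM use the union of all annotated exons (within 5% for 99.4% of 8261 genes), which is 2415 bases for Serpina1b, 1832 for Serpina1a, 1617 for Serpina1e, 1394 for Serpina1d and 1361 for Serpina1c. The shortest complete coding models are closer in length, at 1394, 1360, 1295, 1394 and 1361 bases in the same order of genes. Which annotated models these libraries express was not tested. With each FPKM multiplied by the union length and divided by the length of the shortest model, Serpina1b came first. Its means were 1336 in cadmium and 1267 in control libraries. Serpina1d and Serpina1c, whose lengths are the same on both scales, followed at 1045 and 1017 in cadmium and at 838 and 834 in control libraries. Serpina1a had 903 in cadmium and 825 in control libraries, and Serpina1e 112 in cadmium and 93.5 in control libraries. The ratio of cadmium to control within a gene is the same on both scales, since each gene is multiplied by 1 constant.

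Serpina3g, also called Spi2A, differs from the other members in kind: it stays in the nucleus and cytosol, is known from mouse leukocytes, where interferon gamma and NF-kB signalling raise it, and inhibits lysosomal cysteine cathepsins. Serpina3g (ENSMUSG00000041481, 104236245 to 104241939) was at 1.77, 2.90 and 2.71 FPKM in cadmium replicates 1 to 3 and at 1.32, 0.882 and 0.618 FPKM in control replicates 1 to 3. All cadmium libraries lay above all controls, and the nearest were cadmium replicate 1 and control replicate 1, of the same batch. The values rest on 196, 518 and 456 reads in cadmium and on 199, 115 and 69 reads in control libraries. Serpina3g rose to a mean of 2.46 ± 0.61 FPKM in cadmium, against 0.941 ± 0.357 FPKM in control libraries (SD, n = 3 each), a ratio of 2.61. The fitted log2 fold change, made smaller than the log2 ratio by the 1 added to so low an FPKM, was 0.83 (SE 0.17, 95% interval 0.42 to 1.24, adjusted p = 0.0318). In the authors' deposited table its log2 fold change was 1.23 and its FDR 8.55e-04, where 6.87% of 34352 genes had an FDR of 0.05 or less, 3.72% with cadmium higher. The call was lost with the replicate block (adjusted p = 0.104), after quantile normalization (0.0659), after trimmed mean scaling (0.0557), in a fit to the deposited log2 values (0.0512) and with no filter (0.139). It was also lost without control replicate 2 (0.0869), control replicate 3 (0.0814), cadmium replicate 2 (0.0809) or cadmium replicate 3 (0.119). Of all genes 2.5% were called with the block, 6.51% after quantile normalization, 6.69% after trimmed mean scaling, 8.82% in the deposited log2 values and 0.108% with no filter. Without those 4 libraries in the same order the percentages were 5.29%, 3.75%, 5.66% and 1.02%. Serpina3g kept its call with voom on the recovered reads (11.6% of all genes called), upper quartile scaling (7.5%), pseudocounts of 0.1 (9.02%) and 0.5 (9.65%), and without control replicate 1 (7.88%) or cadmium replicate 1 (3.2%). A filter of 5 FPKM, under which 7.11% were called, left it untested.

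Markers of several other cell types were also higher in cadmium. The summed FPKM of 10 monocyte and macrophage markers was 55.1 to 60.0 in cadmium and 28.9 to 44.6 in control libraries, and 3 of the 7 tested were called higher, Lyz2, Cd68 and Adgre1. The count was 2 with the replicate block, 4 with voom, and 0 without cadmium replicate 3 to 4 without control replicate 2. Csf1r, Clec4f, Vsig4 and Marco had log2 fold changes of 0.62, 0.25, -0.19 and -0.05 and were not called. Clec4f, Vsig4 and Marco are markers of resident macrophages. Cd68 reached 1 FPKM in 3 cadmium libraries and 1 control library, so its passing the filter rested on cadmium. Lyz2, the myeloid lysozyme, rose to 25.7 ± 2.09 FPKM in cadmium, against 11.3 ± 3.17 FPKM in control libraries (adjusted p = 0.0141, and 0.0665 without cadmium replicate 3). The 12 neutrophil markers summed to 1.79 to 2.25 FPKM in cadmium and 0.365 to 1.16 FPKM in control libraries, and the defining markers Mpo and Ly6g were at 0 in all 6. S100a9 was the 1 of these 12 that passed the filter, and it passed through the cadmium libraries alone, so that it had to differ. It was at 1.07 ± 0.05 FPKM in cadmium and 0.193 ± 0.334 FPKM in control libraries, and no call is drawn from it. The 10 T and NK cell markers summed to 1.68 to 2.55 FPKM in cadmium and 1.05 to 2.40 FPKM in control libraries, and 0 of them passed the filter. The 6 B cell markers summed to 4.07 to 6.86 FPKM in cadmium and 1.70 to 4.13 FPKM in control libraries, with 0 of 1 tested called. Stellate cell and fibroblast markers summed to 30.2 to 34.3 FPKM in cadmium and 12.8 to 20.1 FPKM in control libraries, and 5 of the 6 tested were called higher. That count was 2 with the replicate block and without control replicate 3, cadmium replicate 1 or cadmium replicate 3, and 1 of the 5, Col1a1, passed the filter through the cadmium libraries alone. Endothelial markers summed to 32.1 to 43.3 FPKM in cadmium and 23.6 to 35.4 FPKM in control libraries, with 1 of 7 called, 0 with the replicate block and 0 to 3 with a library left out. The 1 called, Lyve1, reached 1 FPKM in 3 cadmium libraries and 1 control library, so it too passed the filter through cadmium. Cholangiocyte markers summed to 7.56 to 25.7 FPKM in cadmium and 6.23 to 9.96 FPKM in control libraries, erythroid markers to 175 to 567 FPKM in cadmium and 127 to 446 FPKM in control libraries, and pancreas markers to 1.32 to 1.60 FPKM in cadmium and 1.08 to 1.89 FPKM in control libraries, with 0 called in each. Hepatocyte markers, which define the labelled tissue, summed to 17007 to 26006 FPKM in cadmium and 16225 to 24328 FPKM in control libraries. Of 7 tested 1 was called higher, the fibrinogen chain Fgb, and 0 with the replicate block or any 1 library left out. The part of these cells in the level of Serpina3g was not tested.

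Interferon gamma is the signal under which Serpina3g is known in macrophages. Genes of the interferon gamma response were called higher in 6 of 10 tested and lower in 0. Of all tested genes 7.86% were called higher. The list also holds chains of the interferon gamma receptor, and 1 of the 6 called is such a chain. The median log2 fold change of the 10 was 0.55, against 0.09 over all genes. Gbp2, a guanylate-binding GTPase, rose to 2.12 ± 0.23 FPKM in cadmium, against 0.871 ± 0.171 FPKM in control libraries (adjusted p = 0.00925, and 0.0503 without cadmium replicate 3). Irf1, a transcription factor of that response, rose to 7.70 ± 0.73 FPKM in cadmium, against 4.35 ± 0.88 FPKM in control libraries (adjusted p = 0.0249, 0.0785 with the replicate block, and 0.0582 to 0.0964 without control replicate 3 or any 1 cadmium library). Gbp3 and the peptide transporter Tap1 were also called higher. Gbp2 and Gbp3 each reached 1 FPKM in 3 cadmium libraries and 1 control library, so their passing the filter rested on cadmium. Of the 15 genes on this list 10 passed the filter. With the replicate block 1 was called, Gbp2 (adjusted p = 0.0399, limma). The number called ran from 0 without cadmium replicate 3 to 5 over the fits that left out a library. The part of this response in the level of Serpina3g was not tested.

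Serpina3k, a kallikrein-binding inhibitor of mouse plasma, is the main Serpina3 transcript here. Serpina3k (ENSMUSG00000058207, 104338486 to 104346144) was at 625, 920 and 555 FPKM in cadmium and at 537, 381 and 757 FPKM in control libraries. The libraries of the groups interleaved, with cadmium replicate 2 the highest and control replicate 2 the lowest of the 6. Within batches 1, 2 and 3 the log2 difference was 0.22, 1.27 and -0.45, so the batches did not share a direction. The fitted log2 fold change was 0.35 (SE 0.30, 95% interval -0.36 to 1.05, adjusted p = 0.509), the widest interval of the 9 tested genes. It was 0.10 without control replicate 2, 0.13 without cadmium replicate 2 and 0.59 without control replicate 3.

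Serpina3m, its neighbour with the shared annotated start, showed no such swing. Serpina3m (ENSMUSG00000079012, 104338486 to 104394257) was at 166, 145 and 182 FPKM in cadmium and at 128, 150 and 192 FPKM in control libraries. The log2 fold change was 0.08 (SE 0.19, 95% interval -0.36 to 0.51, adjusted p = 0.833). It was -0.06 without control replicate 1. Serpina3k and Serpina3m thus ranked the libraries differently: cadmium replicate 2 was the highest of 6 for Serpina3k and among the lower ones for Serpina3m.

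Serpina3n, an acute phase protein that in mouse inhibits granzyme B, cathepsin G and leukocyte elastase, was higher in cadmium within every batch without passing the test. Serpina3n (ENSMUSG00000021091, 104406729 to 104414329) was at 99.2, 149 and 133 FPKM in cadmium and at 76.9, 114 and 106 FPKM in control libraries. Cadmium replicate 1 lay below control replicates 2 and 3, so the groups overlapped. Within batches 1, 2 and 3 the log2 difference was 0.36, 0.38 and 0.32. The fitted log2 fold change was 0.36 (SE 0.21, 95% interval -0.15 to 0.86, adjusted p = 0.334), and with the replicate block the adjusted p was 0.168. It was 0.18 without control replicate 1 and 0.23 without cadmium replicate 2. Cadmium was higher in 3 of 3 batches for 4 of the 10 genes, Serpina1c, Serpina1e, Serpina3g and Serpina3n.

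Serpina3c was close to undetected and was not tested. Serpina3c (ENSMUSG00000066361, 104146382 to 104153870) was at 0.182, 0.151 and 0.114 FPKM in cadmium and at 0.320, 0 and 0.0745 FPKM in control libraries. These are 21, 29 and 21 reads in cadmium and 51, 0 and 9 reads in control libraries. The cadmium libraries were alike, and the controls held both the highest and the lowest value. The count of 0 in control replicate 2 allows up to 0.0216 FPKM (3 reads, counting error only). The authors' deposited table lists a log2 fold change of 1.28 for it with an FDR of 0.992.

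Over the Serpina3 members the sum was 891, 1218 and 872 FPKM in cadmium and 744, 647 and 1056 FPKM in control libraries, which followed Serpina3k. The mean log2 of the sums was 0.30 higher in cadmium, against a pooled SD between libraries of 0.32 on that scale. Serpina3k held 69.8 ± 6.00% of it in cadmium and 67.6 ± 7.49% in control libraries. Serpina3m held 17.1 ± 4.65% in cadmium and 19.6 ± 3.20% in control libraries, and Serpina3n held 12.9 ± 2.12% in cadmium and 12.7 ± 4.33% in control libraries. Serpina3g held 0.249 ± 0.056% in cadmium and 0.124 ± 0.061% in control libraries. As a share of Alb FPKM the sum was 5.16%, 12.0% and 4.87% in cadmium and 7.26%, 3.76% and 6.04% in control libraries, with cadmium replicate 2 above the rest.

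By FPKM the 10 genes formed the same tiers in both groups. Serpina1d, Serpina1c, Serpina1b, Serpina3k and Serpina1a led, with cadmium means of 1045, 1017, 771, 700 and 670 FPKM and control means of 838, 834, 731, 559 and 613 FPKM. Neighbours in that order overlapped between libraries, apart from Serpina1c and Serpina1b in cadmium. Serpina3m, Serpina3n and Serpina1e followed, with cadmium means of 164, 127 and 89.5 FPKM and control means of 157, 99.2 and 74.9 FPKM. Serpina3m and Serpina3n overlapped in cadmium and did not overlap in control libraries. Serpina3n and Serpina1e did not overlap in cadmium and overlapped in control libraries. Serpina3g and Serpina3c came last.

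The authors' deposited table, on its own log2 scale, gives smaller differences for the abundant members. Its log2 fold changes were -0.02 for Serpina1a, -0.08 for Serpina1b, 0.12 for Serpina1c, 0.16 for Serpina1d and 0.08 for Serpina1e. They were 0.17 for Serpina3k, -0.10 for Serpina3m and 0.18 for Serpina3n. The FDR in that table was 0.871 for Serpina3n and 0.979 for the other 7.

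**Figure D5:**
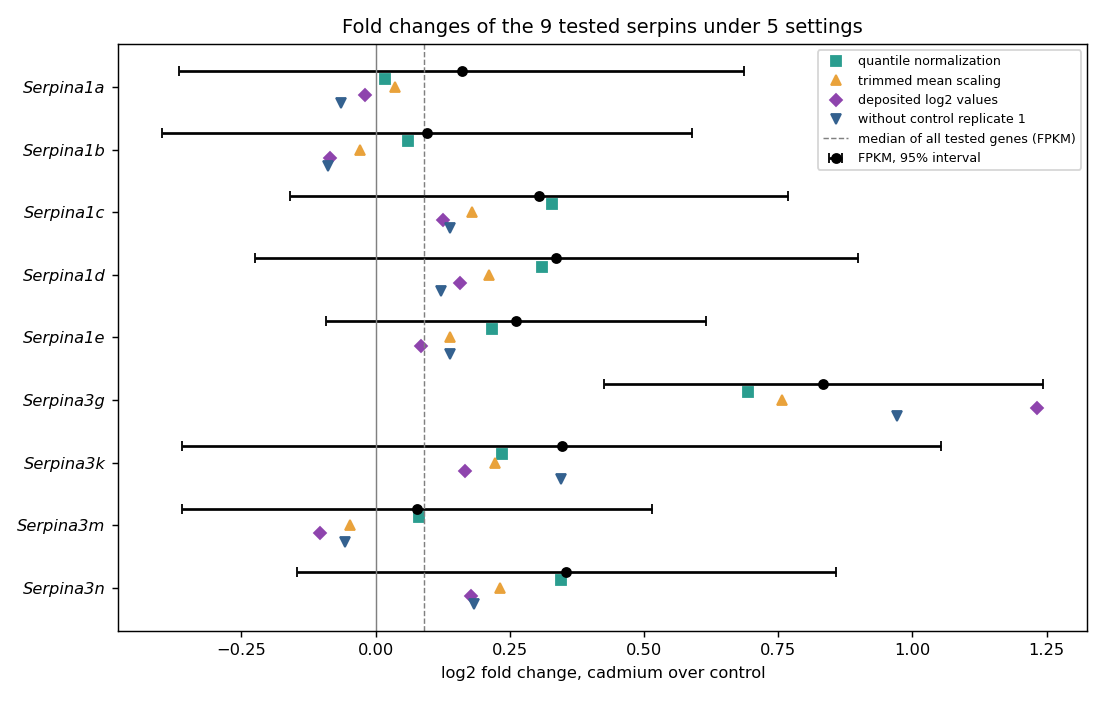
Log2 fold change, cadmium over control, of the 9 tested genes on FPKM (black points, bars are 95% intervals) and under 4 other settings (coloured marks); the dashed line is the median of all tested genes on FPKM, 0.09. The interval of Serpina3g excludes 0, the other 8 include it, and Serpina1a, Serpina1b and Serpina3m change sign between settings.

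Among the 16 other clade A serpins on the list, 4 passed the filter and 0 were called, while 2 had an unadjusted p of 0.05 or less (limma). Serpina11 was at 16.8 ± 3.48 FPKM in cadmium and 10.8 ± 2.18 FPKM in control libraries (adjusted p = 0.0840). Serpina7, the carrier of thyroid hormone on the X chromosome, was at 9.47 ± 4.14 FPKM in cadmium and 3.99 ± 1.19 FPKM in control libraries (adjusted p = 0.101). Serpina6, the carrier of glucocorticoids, was at 128 ± 31.4 FPKM in cadmium and 159 ± 7.94 FPKM in control libraries (adjusted p = 0.306). With voom on recovered reads 1 of the 4 was called. Of 8 tested serpins of other clades 1 was called higher, Serpinh1, the collagen chaperone of the endoplasmic reticulum. It rose to 4.54 ± 1.04 FPKM in cadmium, against 2.52 ± 0.34 FPKM in control libraries (adjusted p = 0.0441, and 0.110 with the replicate block). Its adjusted p was 0.0800 to 0.152 without any 1 library but cadmium replicate 2.

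Of the proteases that clade A serpins of mouse or human are known to meet, 9 of 18 passed the filter, 1 was called higher and 0 lower. F11, coagulation factor XI, which alpha-1-antitrypsin inhibits in humans, rose to 20.9 ± 2.19 FPKM in cadmium, against 8.56 ± 2.17 FPKM in control libraries (log2 fold change 1.21, adjusted p = 0.0130, and 0.0599 without cadmium replicate 3). Ctsl, the lysosomal cathepsin L that Serpina3g inhibits in mouse, was at 47.7 ± 2.05 FPKM in cadmium and 33.4 ± 5.24 FPKM in control libraries (adjusted p = 0.0652). Klkb1, plasma kallikrein, was at 37.3 ± 2.24 FPKM in cadmium and 28.5 ± 1.64 FPKM in control libraries (adjusted p = 0.0738). Plg, plasminogen, had an adjusted p of 0.174. Several proteases of neutrophils and mast cells were at or near 0. Ctsg, Cma1 and Mcpt4 were at 0 in all 6 libraries, as was the tissue kallikrein Klk1. Elane, neutrophil elastase, was at 0 in 3 of 3 cadmium libraries and had 0.0719 FPKM in 1 control library. Mmp9, under the filter and not tested, was at 0.164, 0.325 and 0.232 FPKM in cadmium and 0.120, 0.128 and 0.107 FPKM in control libraries.

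Genes that fold, check and export secreted proteins such as alpha-1-antitrypsin were not called in 16 of 16 tested (limma), with 2 at an unadjusted p of 0.05 or less and 0 called with voom. Their median log2 fold change was 0.07, against 0.09 over all genes. Man1b1, a mannosidase that marks misfolded glycoproteins, was at 5.16 ± 0.45 FPKM in cadmium and 3.90 ± 0.31 FPKM in control libraries (adjusted p = 0.0692). Hspa5, the chaperone BiP, was at 66.0 ± 8.07 FPKM in cadmium and 85.4 ± 18.9 FPKM in control libraries (adjusted p = 0.268).

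Other acute phase proteins of the liver were called higher in 9 of 19 tested and lower in 0, with a median log2 fold change of 0.69. Of all tested genes 7.86% were called higher. The count was 2 with the replicate block, 5 after quantile normalization, and 1 without cadmium replicate 3 to 5 over the fits that left out a library. Of the 9, 1 passed the filter through the cadmium libraries alone, the serum amyloid A gene Saa2, at 6.42 ± 2.48 FPKM in cadmium and 0.726 ± 0.071 FPKM in control libraries. Cp, ceruloplasmin, rose to 63.6 ± 2.30 FPKM in cadmium, against 42.3 ± 1.69 FPKM in control libraries (adjusted p = 0.0232, 0.0676 with the replicate block, and 0.0518 to 0.118 without any 1 library but control replicate 1). The metallothionein Mt2 and the pentraxin Apcs were also called higher. Mt2 was at 951 ± 312 FPKM in cadmium and 10.6 ± 7.67 FPKM in control libraries. The 2 genes called with the replicate block were Mt2 (adjusted p = 0.00933, limma) and Saa2 (adjusted p = 0.0399, limma). Whether Serpina1 or Serpina3 differ from these genes in their response was not tested.

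The signal path of the acute phase response had 2 of 14 tested genes called, both lower. With voom 3 were called higher and 2 lower, and of the 8 at an unadjusted p of 0.05 or less 5 were higher in cadmium. The number called lower was 1 with the replicate block, and ran from 0 without cadmium replicate 3 to 3 without control replicate 1. Cebpb, a transcription factor of that response, fell to 40.6 ± 6.03 FPKM in cadmium, against 99.5 ± 15.4 FPKM in control libraries (log2 fold change -1.27, adjusted p = 0.00994, and 0.0511 without cadmium replicate 3). Il6ra, the interleukin-6 receptor, fell to 5.58 ± 0.34 FPKM in cadmium, against 7.87 ± 0.15 FPKM in control libraries (adjusted p = 0.0234, and 0.0668 with the replicate block). Its adjusted p was 0.0501 to 0.0846 without control replicate 2 or 3 or any 1 cadmium library. Il6st, the signalling chain of that receptor, was at 16.7 ± 1.24 FPKM in cadmium and 12.5 ± 0.48 FPKM in control libraries (adjusted p = 0.0503). Nfkb1 had an adjusted p of 0.0550.

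Liver transcription factors known at serpin genes were called in 0 of 10 tested (limma), with 4 at an unadjusted p of 0.05 or less and 1 called with voom. Onecut1 was at 2.14 ± 0.85 FPKM in cadmium and 6.13 ± 2.16 FPKM in control libraries (adjusted p = 0.0571). Hnf4a was at 81.9 ± 10.04 FPKM in cadmium and 107 ± 12.4 FPKM in control libraries (adjusted p = 0.161). Of 15 tested genes of the growth hormone axis and of sex-biased liver expression 1 was called, Stat5b, the transcription factor that growth hormone activates. It rose to 13.4 ± 1.13 FPKM in cadmium, against 7.62 ± 0.43 FPKM in control libraries (adjusted p = 0.0101, and 0.0547 without cadmium replicate 3). Without control replicate 1 the list had 2 called higher and 2 lower, and without cadmium replicate 3 it had 0.

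The genes whose pattern over the 6 libraries was most like that of Serpina1e, by Pearson correlation of log2(FPKM + 1), were Eif2d, Upb1, Pdk2, Pgap2 and Poldip3, with r of 0.986 to 0.990. Those most like Serpina3g were Snx30, Wdr81, Tgoln1, Tifa and Tbc1d17, with r of 0.990 to 0.996. They were picked from 9908 tested genes for their correlation over 6 libraries of 2 groups, so the values only describe likeness.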

How the data were processed

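Liver libraries (3 cadmium, 3 control) were compared from tables the authors deposited. The authors' FPKM table gives fragments per kilobase, scaled to the library total, for 55335 genes. The authors' second deposited table gives log2 values, log2 fold changes, p-values and FDR for 34352 genes. Undoing log2 showed read counts divided by a size factor, with 100% of values whole within 0.05 of a read, which gave the reads per library. The tools named in the submitters' processing notes are STAR 2.7.1a, cutadapt 1.1.8, SAMtools 1.3.1, DESeq2 and MACS2 2.1.1, with mm10 as the build. For the counter, the annotation and the test behind the authors' p-values the answer is: not given in the sources used here.

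The fit to log2(FPKM + 1) used limma 3.58.1 (R 4.3.3, variance trend, robust, two-sided) over 9908 genes with FPKM of at least 1 in 3 of 6 libraries. Its threshold was an adjusted p of 0.05 (Benjamini-Hochberg), and the script was tested on simulated data. Alternatives were other pseudocounts (0.1, 0.5), filters, scalings, the deposited log2 values, voom on recovered reads, a replicate block and leaving out each library. The replicate number is the batch in the labels, so it pairs the libraries. Deviations of same-numbered libraries correlated at -0.21, -0.23 and -0.02.

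The 10 genes, the lists and the rule for named genes (all members, up to 4 genes of smallest p per list, and the 5 genes most like 1 member of each family) were chosen with earlier results of these data known. Of the genes this rule names, 1 is not reported here. GENCODE M21 matched 55154 of 55335 identifiers and all 10 members. 0 columns of unknown samples were present. The 95% intervals of fold changes are limma's, from the spread between libraries, and the floor of 3 reads covers counting error only.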

Additional observations from a re-analysis of the deposited data

How the results depend on the processing

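Of 143 refits of the 9 tested members, 126 kept direction and side of the threshold, 9 ended the call of Serpina3g with its direction kept, and 8 changed the sign of a member that was not called. Serpina1a was at -0.0198 in the deposited log2 values and at -0.0647 to 0.283 with a library left out. Serpina1b was at -0.0292 with trimmed mean scaling, -0.0847 in the deposited log2 values and -0.0891 to 0.193 with a library left out. Serpina3m was at -0.0471, -0.103 and -0.0567 to 0.233 under the same settings. The negative ends came from leaving out control replicate 1. The number of members called, 1, was 0 with no filter, with a filter of 5 FPKM (where Serpina3g was not tested), in the deposited log2 values, with quantile or trimmed mean scaling and with the replicate block, and was 0 to 1 with a library left out. Over all genes 959 were called, against 37 with no filter, 279 with the filter of 5 FPKM, 248 with the replicate block and 101 to 781 with a library left out. The split was 779 higher and 180 lower, or 347 and 298 with quantile, 372 and 291 with trimmed mean and 510 and 233 with upper quartile scaling, and 381 and 493 in the deposited log2 values. All-gene medians of log2 fold change shifted likewise: 0.09 in FPKM, -0.01 with quantile scaling, -0.06 in the deposited values. The difference between groups in the mean log2 family sum ran from 0.04 to 0.34 for Serpina1 and from 0.14 to 0.50 for Serpina3 with a library left out. Of 30 called list and marker genes 10 kept their call with the replicate block and 3 without cadmium replicate 3, and 0 genes of any list were called with no filter. Apart from Serpina3g the block changed no call of a member. Read counts of at most 51 limit Serpina3c.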

Other observations

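Some low neighbours in the cluster had most of their reads in 1 or 2 libraries, or varied widely between libraries, and these were chosen after their values were seen. The pseudogene Serpina3l-ps had 8, 290 and 4 reads in cadmium replicates 1 to 3 and 16, 1 and 319 reads in control replicates 1 to 3. Serpina3h had 14, 20 and 179 reads in cadmium and 34, 12 and 6 reads in control libraries. Serpina3f, a close relative of Serpina3g, had 110, 286 and 172 reads in cadmium and 572, 67 and 51 reads in control libraries, so control replicate 1 was the highest of the 6. Serpina4-ps1 had 13, 23 and 0 reads in cadmium and 97, 0 and 0 reads in control libraries.

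Serpina12, which encodes the adipokine vaspin, was at 1.60, 1.42 and 0.910 FPKM in cadmium and at 0.523, 0.255 and 0.241 FPKM in control libraries. All 3 cadmium libraries lay above all 3 controls, as they did for 26.4% of all tested genes. Serpina12 was under the filter and not tested, and it too was picked after its values were seen.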
